A study of Danio rerio with 48 samples.

Results

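The *gemin7* mutants are zebrafish larvae homozygous for the *gemin7* allele hg111, a deletion of 1 base pair on the TAB-5 background, and they were profiled by RNA-Seq in 3 libraries. They are the samples whose titles name *gemin7* homozygotes, 3 of the 48 samples of the series, of which 33 are mRNA libraries and 15 are small RNA libraries. Their control was a set of 3 shared wild-type libraries, and the titles assign 1 of these to each of the *gemin4*, *gemin6* and *gemin7* families, all TAB-5. The *gemin4* and *gemin6* homozygous mutants, 3 libraries each, share this control and were also set beside the *gemin7* mutants. Every larva of these groups was exposed to 10 µM copper sulfate, which kills lateral line hair cells, for 2 h at 5 days post fertilization (dpf) and was collected at 7 dpf. Bodies without the tail fin piece used for genotyping were pooled by genotype, so that RNA came from nearly whole larvae. In such bulk RNA, fewer cells of a type and less RNA per cell cannot be told apart.

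As models these groups have limits. A single *gemin7* allele was profiled, the larvae came from a cross of heterozygotes that is described as 1 pair, and only 1 of the 3 control libraries belongs to the mutants' own family. No source states that the replicate pools of a mutant came from separate crosses, so the spread between them may be technical. The spread between the 3 control libraries includes that between families. P-values measure only the spread between these samples.

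Gemin7 is a small protein of the SMN complex. The complex is built around SMN, whose loss causes spinal muscular atrophy in people, and it loads the ring of Sm proteins onto the spliceosomal small nuclear RNAs (snRNAs) in the cytoplasm. Gemin2 binds the Sm proteins, Gemin5 recognizes the snRNA, and Ddx20 is a DEAD-box helicase. Gemin6, Gemin7 and Gemin8, with Unrip (encoded by *strap*), form a peripheral module of the complex, in which Gemin6 and Gemin7 pair through folds that resemble those of Sm proteins. U6 snRNA differs from the other spliceosomal snRNAs, in that it is transcribed by RNA polymerase III and carries a ring of LSm proteins in place of Sm proteins.

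The mutated gene itself was measured first, in CPM, the expected counts of a gene relative to the TMM-scaled total of its library. Its mRNA was lower in all *gemin7* mutant libraries than in any wild-type library. *gemin7* (ENSDARG00000041011) stood at 4.52, 5.04 and 3.94 CPM in *gemin7* mutants, against 7.38, 6.96 and 7.27 CPM in wild type. The means were 4.50 ± 0.55 CPM in mutants and 7.21 ± 0.22 CPM in wild type (SD, n = 3 each), which is 62.4% of the wild-type level. The difference of -0.68 ± 0.14 on the log2 scale (SE) had an edgeR adjusted p of 0.563 and a DESeq2 adjusted p of 0.0582 over all genes. A two-sided exact permutation test on this gene gave p = 0.1, which is the smallest that 3 against 3 libraries allow. Transcripts with a deletion of 1 base pair are still counted, so the level does not by itself check the genotype, and protein was not measured here.

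No other member of the SMN complex had an unadjusted p below 0.05. *smn1*, which encodes SMN, had 9.63, 10.1 and 9.59 CPM in *gemin7* mutants, against 8.17, 9.06 and 9.27 CPM in wild type. The groups did not overlap, but the difference of 0.14 ± 0.11 on the log2 scale was close to its standard error. *gemin6*, whose product binds Gemin7 directly, had 3.61, 2.21 and 5.14 CPM in mutants, against 2.82, 3.83 and 3.39 CPM in wild type, and the mutant libraries lay on both sides of all wild-type libraries. *strap* had 63.6, 57.8 and 60.2 CPM in mutants, against 53.3, 57.7 and 60.0 CPM in wild type, and the groups overlapped. The log2 fold changes of the rest were 0.016 ± 0.12 for *gemin2*, 0.12 ± 0.13 for *ddx20*, -0.017 ± 0.10 for *gemin4*, -0.18 ± 0.19 for *gemin5* and 0.034 ± 0.13 for *gemin8*. Over the 9 genes the median was 0.03, beside -0.01 over all genes tested.

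**Figure D1:**
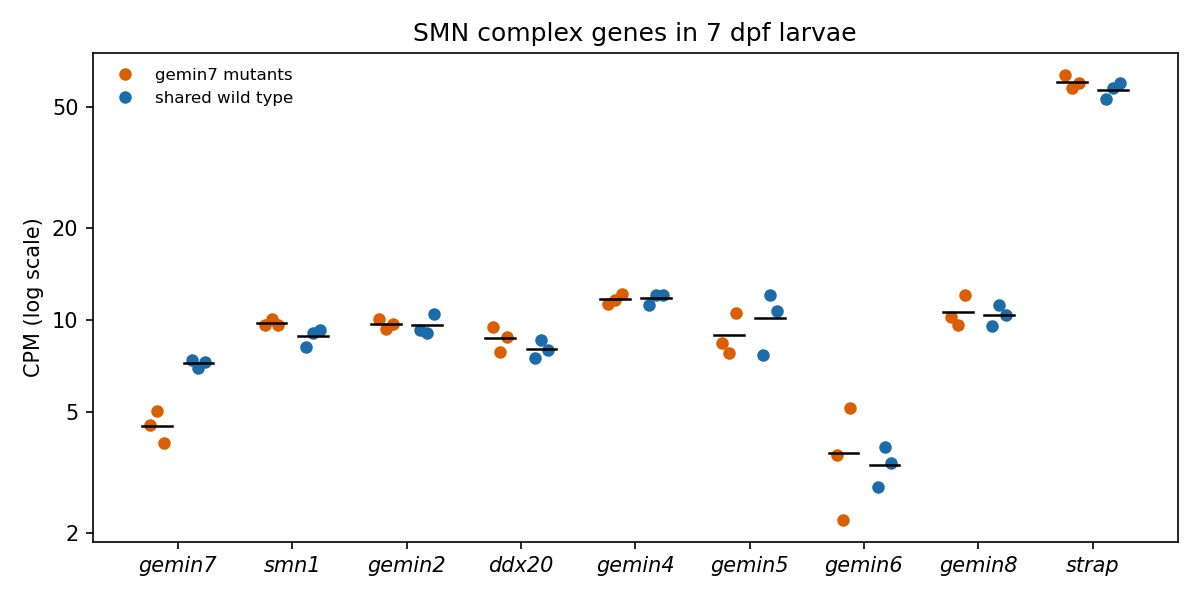
CPM on a log axis of the 9 genes of the SMN complex in each *gemin7* mutant library (orange, left of each pair) and each shared wild-type library (blue), with black bars for the means of 3 libraries. The *gemin7* points lie between 3.94 and 5.04 CPM in mutants and between 6.96 and 7.38 CPM in wild type, and the other genes overlap or, for *smn1*, lie close together.

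On the TPM scale, which corrects for transcript length, *gemin7* mRNA was not the scarcest of the complex. It averaged 13.8 ± 1.39 TPM in *gemin7* mutants and 23.0 ± 0.786 TPM in wild type (SD, n = 3 each). *smn1* averaged 14.7 ± 0.603 TPM in mutants and 13.8 ± 1.32 TPM in wild type, and *strap* averaged 46.7 ± 2.22 TPM in mutants and 45.6 ± 3.801 TPM in wild type. *gemin4* (4.57 ± 0.347 TPM in mutants, 4.78 ± 0.405 TPM in wild type) and *gemin5* (2.63 ± 0.525 TPM in mutants, 3.09 ± 0.820 TPM in wild type) were lower than *gemin7* in both groups.

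Across all genes, the comparison asked how the transcriptome of larvae without intact *gemin7* differed from that of wild-type larvae. No gene passed the edgeR test, but *snapc4*, *brf2* and *mettl16*, genes of snRNA transcription and U6 snRNA, were higher in every *gemin7* mutant library and were called by 2 other fits. Of 23195 genes tested by edgeR's quasi-likelihood test, 0 (0%) had an adjusted p below 0.05, and the smallest adjusted p was 0.563. At an unadjusted p below 0.05 there were 1908 genes (8.23%), of which 596 (2.57%) were higher and 1312 (5.66%) lower in *gemin7* mutants. DESeq2 called 49 genes, which is 0.17% of 28821 genes and 0.276% of the 17768 that it gave an adjusted p. Of these, 14 (0.0486%) were higher and 35 (0.121%) lower in mutants, and all 49 had libraries that did not overlap between the groups. A fit of all 33 mRNA libraries, which shares the estimate of spread over 11 groups, called 4 of 24535 genes (0.0163%), and these were *snapc4*, *brf2* and *mettl16*, higher in mutants, and *irgq1*, lower. By the titles, the shared wild types are the only one of these groups from several families. The spread taken from the other groups may leave out that between families, so the p-values of this fit may be too small. For 3232 genes (13.9%) the 3 mutant libraries did not overlap with the 3 wild-type libraries. The 12 higher and 12 lower leading genes of smallest p described below were picked among these. Their lack of overlap was thus fixed by the choice and adds no support to their p-values.

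The libraries were of similar depth apart from 1. The totals were 39752011 to 41029241 expected counts in *gemin7* mutants, 37573729, 39167904 and 60650366 in the shared wild types, and 30045993 to 88871247 over all 33 mRNA libraries, and the deepest of the shared wild types was that of the *gemin7* family. Of 38 marker genes fixed for the main tissues of a larva, 30 were found and gave 32 tested identifiers, and each of these was above 0 in every library. Their log2 fold changes in *gemin7* mutants ran from -0.49 to 0.34, and 1 was higher and 3 were lower at an unadjusted p below 0.05, beside 2.57% and 5.66% of all genes.

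A slope with transcript length ran through the comparison. When the genes were split into 5 groups of equal size by the transcript length that the deposited tables give, 4.14% of the shortest group (median 901 bases) were higher and 1.94% lower in *gemin7* mutants at an unadjusted p below 0.05. In the longest group (median 4827 bases), 1.27% were higher and 13.1% lower. The median log2 fold change was 0.06 in the shortest and -0.10 in the longest group. Against the wild-type library of the *gemin7* family alone, these medians were 0.04 and -0.03, and that library differed from the other 2 wild types by 0.05 and -0.10, in the same direction as the mutants. Of the 35 genes that DESeq2 called lower, 25 lay in the 2 groups of longest transcripts, and of the 14 called higher, 2 did. The part of transcript length in the results below was not tested.

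**Figure D2:**
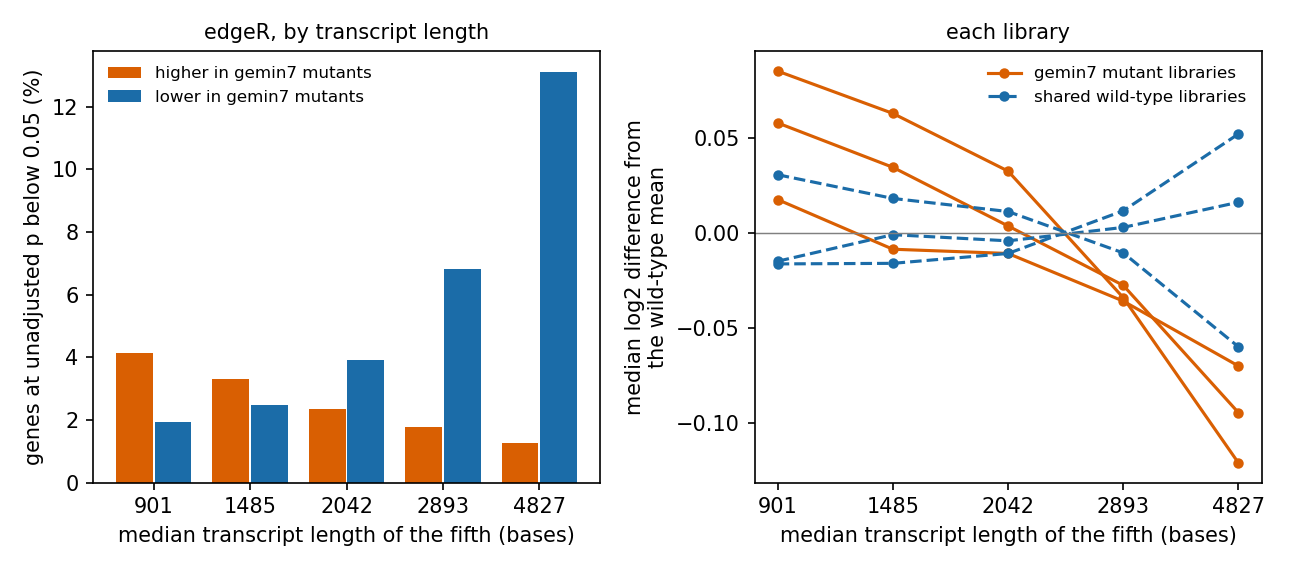
Left, the percentage of genes with an unadjusted edgeR p below 0.05 that were higher (orange) or lower (blue) in *gemin7* mutants, by 5 groups of transcript length in bases. Right, the median log2 difference of each library from the mean of the 3 wild types, with mutant libraries as solid orange lines and wild types as dashed blue lines. The lower genes reach 13.1% in the longest group, and 1 wild-type library, that of the *gemin7* family, slopes the same way as the mutants.

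*snapc4*, *brf2* and *mettl16*, which act in snRNA transcription and on U6 snRNA, were the 3 genes called both by DESeq2 and in the fit of 33 libraries. The smallest DESeq2 adjusted p of all higher genes, 6.92e-05, belonged to *si:dkeyp-61b2.1*, with a DESeq2 log2 fold change of 1.55, which has a clone name only and is named here after its value was seen. *snapc4* encodes the largest subunit of the SNAPc complex, which binds the promoters of snRNA genes. It had 22.6, 21.7 and 24.2 CPM in *gemin7* mutants, against 15.6, 15.1 and 13.5 CPM in wild type. The lowest mutant library was well above the highest wild type, and the log2 fold change was 0.64 ± 0.11 with a DESeq2 adjusted p of 0.00456 and an edgeR adjusted p of 0.00432 over 33 libraries. *snapc4* lies in the group of longest transcripts, where 1.27% of genes were higher.

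*brf2* encodes the TFIIIB subunit that RNA polymerase III needs at promoters of the U6 type. It had 4.19, 3.29 and 4.08 CPM in *gemin7* mutants, against 1.06, 1.88 and 1.81 CPM in wild type. Levels were low but did not overlap, and the log2 fold change of 1.27 ± 0.24 had a DESeq2 adjusted p of 0.00720 and an edgeR adjusted p of 0.00432 over 33 libraries. *mettl16* encodes the methyltransferase that modifies an adenosine of U6 snRNA. It stood at 10.01, 9.02 and 11.5 CPM in *gemin7* mutants, against 5.83, 6.43 and 6.47 CPM in wild type. Again no mutant library overlapped with wild type, which the choice of leading genes required. The log2 fold change was 0.70 ± 0.13, with a DESeq2 adjusted p of 0.0206 and an edgeR adjusted p of 0.00432 over 33 libraries. Against the *gemin7*-family wild type alone, these 3 genes were higher by 0.77 for *snapc4*, 1.099 for *brf2* and 0.67 for *mettl16* on the log2 scale. That library is 1 of the 3 wild types, so this direction was already given by the lack of overlap.

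Some genes whose proteins bind U6 snRNA or the tri-snRNP were also higher in every mutant library. *lsm7*, which encodes a member of the LSm ring on U6, had 35.0, 27.6 and 31.7 CPM in *gemin7* mutants, against 21.1, 18.1 and 22.9 CPM in wild type, with no overlap and a DESeq2 adjusted p of 0.0378. *lsm8*, the subunit that sets the nuclear LSm ring apart from the cytoplasmic ring, had 8.05, 6.37 and 10.1 CPM in mutants, against 4.67, 4.99 and 5.28 CPM in wild type. Its groups did not overlap either, and its DESeq2 adjusted p was 0.0897. By edgeR the adjusted p was 0.563 in the 6 libraries and 0.145 in all 33. It was 0.0409 by edgeR in the 32 libraries without the *gemin7*-family wild type, where family and genotype cannot be told apart. *prpf31*, which binds U4/U6 and is a retinitis pigmentosa gene in people, had 26.5, 25.2 and 30.5 CPM in mutants, against 18.4, 19.1 and 21.4 CPM in wild type, a log2 fold change of 0.48 ± 0.12. *snrnp27*, a protein of the tri-snRNP, had 27.5, 25.5 and 29.7 CPM in mutants, against 18.9, 19.5 and 22.9 CPM in wild type, a log2 fold change of 0.43 ± 0.12. Neither *prpf31* nor *snrnp27* overlapped between the groups, and neither passed an adjustment by edgeR or by DESeq2 (DESeq2 adjusted p = 0.0894 and 0.168).

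**Figure D3:**
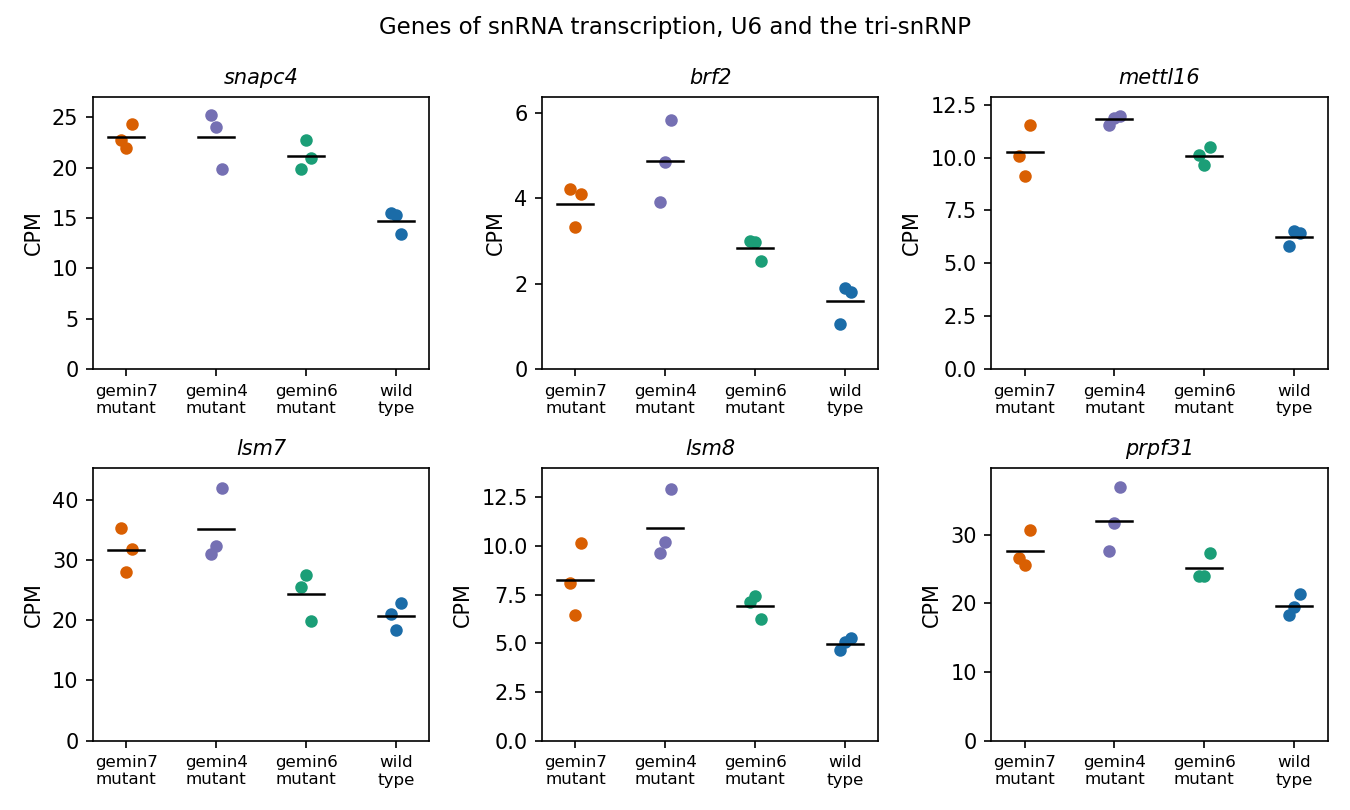
CPM, scaled across the 33 mRNA libraries, of 6 genes of snRNA transcription, U6 and the tri-snRNP in each library of *gemin7*, *gemin4* and *gemin6* mutants and shared wild types, with black bars for the means of 3 libraries. For *snapc4*, *brf2* and *mettl16* every library of the 3 mutants lies above every wild-type library.

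Whole lists differed less from wild type than these leading genes. Of 29 factors of U6, U4/U6 and U5, a list put together after values had been seen, 8 were higher and 1 lower in *gemin7* mutants at an unadjusted p below 0.05, beside 2.57% and 5.66% of all genes, and the median log2 fold change was 0.13, beside -0.01 over all genes tested. The lower gene was *cherp*, whose product associates with the U2 snRNP. It had 22.3, 22.1 and 21.7 CPM in mutants, against 32.7, 34.7 and 29.4 CPM in wild type, with no overlap and a DESeq2 adjusted p of 0.0206. Of 15 snRNA transcription factors, likewise chosen with values known, 2 were higher, which were *snapc4* and *brf2*, and none was lower, with a median of 0.09. *ice1*, a scaffold of the little elongation complex at snRNA genes, had a log2 fold change of 0.31 ± 0.14. Of 15 subunits of the Integrator, which cuts the 3′ ends of snRNAs, none was higher and 1 was lower, with a median of -0.02.

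Genes of the Sm proteins, the cargo of the SMN complex, differed between the mutant libraries. All 8 identifiers tested had a positive log2 fold change, from 0.11 to 0.64 with a median of 0.31, and 2 had an unadjusted p below 0.05, but for none of them were all mutant libraries above all wild types. Set against the wild-type mean, the median of the list was 0.22, -0.09 and 0.64 in *gemin7* mutants 1, 2 and 3, and -0.21, 0.08 and 0.07 in the wild types, so that mutant 2 lay below 2 of the wild types and mutant 3 was the highest. One of these was *snrpd2*, with 25.4, 19.9 and 31.0 CPM in *gemin7* mutants, against 16.6, 20.1 and 21.0 CPM in wild type, and the groups overlapped. The other was 1 of 2 identifiers named *snrpd3*, a pair of copies between which reads may be divided. The median of the Sm genes was 0.39 without the *gemin7*-family wild type and 0.24 against it alone. The 8 LSm genes tested also had positive log2 fold changes, with a median of 0.16, and again mutant 2 (-0.048 from the wild-type mean) lay below 2 of the wild types. Both lists consist of short transcripts, with median lengths of 656 bases for the Sm and 804 bases for the LSm genes, and the group of shortest transcripts had a median of 0.06.

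The same genes were compared with mutants of other subunits. *gemin4* and *gemin6* mutants share the wild-type control with *gemin7* mutants, so that their differences from wild type are not independent of those above. On the scale of all 33 libraries, *snapc4* had 22.7, 21.9 and 24.3 CPM in *gemin7* mutants, against 25.2, 24.0 and 19.9 CPM in *gemin4* and 19.9, 22.8 and 20.9 CPM in *gemin6* mutants. *brf2* had 4.22, 3.32 and 4.10 CPM in *gemin7* mutants, against 3.91, 4.85 and 5.84 CPM in *gemin4* and 3.01, 2.98 and 2.54 CPM in *gemin6* mutants. *mettl16* had 10.1, 9.11 and 11.5 CPM in *gemin7* mutants, against 11.6, 11.9 and 11.96 CPM in *gemin4* and 10.1, 9.64 and 10.5 CPM in *gemin6* mutants. For each of the 3 genes the *gemin7* mutants overlapped with at least 1 of the other mutants. The direct differences, *gemin7* mutants minus the mean of the other two mutants, were 0.066 ± 0.10 for *snapc4*, 0.069 ± 0.16 for *brf2* and -0.084 ± 0.11 for *mettl16* on the log2 scale (SE), with edgeR adjusted p of 0.802, 0.879 and 0.758. These do not show that the mutants act alike, but each difference was smaller than the difference from wild type.

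The other leading genes that were higher in *gemin7* mutants belong to several organs. *nr1h5*, a nuclear receptor of the farnesoid X receptor family, ran from 11.3 to 14.5 CPM in *gemin7* mutants, against 7.00, 7.66 and 8.33 CPM in wild type. It did not overlap, and the log2 fold change was 0.72 ± 0.14 with a DESeq2 adjusted p of 0.0206. *serf2*, of 2 identifiers by that name, was called by DESeq2 as well (log2 fold change 0.997 ± 0.23, adjusted p = 0.0378). *rhcg*, which encodes an ammonia transporter of the Rhesus family, had 32.9, 35.8 and 39.9 CPM in mutants, against 26.1, 23.9 and 26.0 CPM in wild type. The pancreatic amylase gene *amy2al2* had 678, 586 and 610.3 CPM in mutants, against 400.2, 461 and 455 CPM in wild type. Neither of them overlapped, and the log2 fold changes of 0.51 ± 0.11 for *rhcg* and 0.51 ± 0.10 for *amy2al2* had DESeq2 adjusted p of 0.0378 and 0.0206. In the fit of 33 libraries they were 0.52 ± 0.17 and 0.52 ± 0.38. On that scale *gemin6* mutants had 646, 121 and 367 CPM of *amy2al2*. Of 17 other exocrine pancreas enzyme genes tested, 5 were positive and 12 negative, with a median of -0.08. The remaining genes with the smallest p were *rbp7a*, a retinol-binding protein gene (0.63 ± 0.13), *agxt*, a peroxisomal transaminase gene with 2 identifiers (0.51 ± 0.11), *slc25a48*, a mitochondrial carrier gene (0.51 ± 0.12), and the zinc finger genes *znf1001* (0.66 ± 0.14) and *znf1179* (0.61 ± 0.13), which belong to a large family of similar copies. Their SEs in the fit of 33 libraries were 0.27, 0.20, 0.29, 0.15 and 0.38 in that order.

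The largest positive log2 fold changes included genes with a wide spread. *cartpt*, a neuropeptide gene whose name 4 identifiers carry, had 5.51, 11.3 and 8.37 CPM in *gemin7* mutants, against 1.36, 1.16 and 4.38 CPM in wild type. The highest wild type, that of the *gemin7* family, was close to the lowest mutant. *agt*, which encodes angiotensinogen, had 159.6, 335 and 152 CPM in mutants, against 63.4, 122 and 108 CPM in wild type, where 1 mutant library was far above the rest and the groups did not overlap. *tcnbb*, a vitamin B12 carrier gene, had a log2 fold change of 0.84 ± 0.22. *igfbp1b*, which encodes a binding protein of insulin-like growth factors, had a log2 fold change of 1.051 ± 0.32.

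Among the genes lower in *gemin7* mutants, *ptpro* and *steap4* had the smallest p. *ptpro*, a receptor tyrosine phosphatase gene, had 19.4, 18.4 and 17.2 CPM in *gemin7* mutants, against 32.6, 35.2 and 28.6 CPM in wild type. *steap4*, which encodes a metalloreductase that reduces iron and copper, had 10.2, 8.20 and 11.05 CPM in mutants, against 18.3, 17.9 and 17.9 CPM in wild type. Neither overlapped, and the log2 fold changes of -0.81 ± 0.12 for *ptpro* and -0.88 ± 0.13 for *steap4* had DESeq2 adjusted p of 0.000166 and 0.000190. In the fit of 33 libraries the SE was 0.20 for each, with edgeR adjusted p of 0.195 for *ptpro* and 0.165 for *steap4*. *steap4* lies in the group of longest transcripts, where 13.1% of all genes were lower.

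Several others have roles in neurons and glia. *slc1a2b*, which encodes a glutamate transporter of glia, had 174, 170.1 and 99.4 CPM in *gemin7* mutants, against 286, 322 and 283 CPM in wild type. All mutant libraries were below all wild types, 1 of them far below the rest, and the log2 fold change was -1.005 ± 0.20 with a DESeq2 adjusted p of 0.00568. The homeobox gene *otp*, which specifies hypothalamic neurons, had 10.6, 10.3 and 11.12 CPM in mutants, against 21.3, 20.1 and 16.1 CPM in wild type for the identifier tested here, 1 of 2 by that name. *dpysl2*, a collapsin response mediator gene of growing axons, had 17.9, 17.4 and 18.2 CPM in mutants, against 26.6, 27.9 and 25.6 CPM in wild type. No mutant library overlapped with wild type for either gene. The DESeq2 adjusted p was 0.000855 for *otp* and 0.00568 for *dpysl2*. In the fit of 33 libraries the SEs were wider, at 0.32 for *otp* and 0.18 for *dpysl2*, with edgeR adjusted p of 0.409 and 0.313. Log2 fold changes were -0.84 ± 0.13 for *otp* and -0.58 ± 0.096 for *dpysl2*, -0.65 ± 0.12 for the axon guidance gene *sema3f* (2 identifiers), -0.69 ± 0.13 for the neuronal gene *plppr3* and -0.60 ± 0.11 for *marcksl1a*. *slc1a2b*, *sema3f* and *plppr3* lie in the group of longest transcripts, where 13.1% of all genes were lower, and *otp*, *dpysl2* and *marcksl1a* do not.

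The rest of the leading lower genes have other roles. *mycb* encodes a Myc transcription factor and had 21.9, 20.8 and 23.0 CPM in *gemin7* mutants, against 37.6, 35.7 and 30.7 CPM in wild type, with no overlap and a DESeq2 adjusted p of 0.00559. *zfpm1*, a cofactor of GATA factors in blood, had a log2 fold change of -0.82 ± 0.15, *dennd5a*, an activator of Rab GTPases, of -0.69 ± 0.13, and *brd3b*, a reader of acetylated histones, of -0.53 ± 0.10. *otogl*, which encodes a protein of the inner ear matrix, had 1.45, 1.80 and 1.72 CPM in mutants, against 3.99, 3.11 and 2.84 CPM in wild type, with a DESeq2 adjusted p of 0.0483. *crx*, a transcription factor of photoreceptors, had 19.4, 16.6 and 14.99 CPM in mutants, against 31.6, 38.4 and 22.1 CPM in wild type, with a DESeq2 adjusted p of 0.0378. Neither *otogl* nor *crx* overlapped between the groups. *zfpm1*, *dennd5a*, *brd3b* and *otogl* lie in the group of longest transcripts, where 13.1% of all genes were lower, and *mycb* and *crx* do not. The immediate early gene *fosaa* had 5.055, 2.13 and 3.35 CPM in mutants, against 11.2, 8.29 and 5.17 CPM in wild type. Its log2 fold change was -1.22 ± 0.35 against the shared wild types and -0.55 against the *gemin7*-family library alone. For *crx* these values were -0.85 ± 0.20 and -0.37.

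The 7SL RNA gene *rn7sl1* had a log2 fold change of -2.93 ± 0.88 that rested mainly on 1 library. It had 0.737, 0.822 and 0.495 CPM in *gemin7* mutants, against 1.52, 1.32 and 12.6 CPM in wild type, and without the *gemin7*-family wild type it was -1.053. 7SL is the RNA of the signal recognition particle and has no natural poly(A) tail.

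The genes were also described in 40 lists of tissues and pathways, which together had 1032 genes tested. edgeR called 0 of them at an adjusted p below 0.05, with 36 higher and 52 lower at an unadjusted p below 0.05, and DESeq2 called 2, *lsm7* and *crx*. The counts of higher and lower genes in the lists that follow are at an unadjusted p below 0.05, to be read beside 2.57% and 5.66% of all genes. The medians of 35 lists lay within 0.2 of 0 on the log2 scale. Only 4 lists had a median above 0.2 (the Sm proteins, heart contractile genes, DNA damage and cell death genes, and a group of 6 jacalin-like and other genes that vary between families), and 1, the circadian clock genes, below -0.2.

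**Figure D4:**
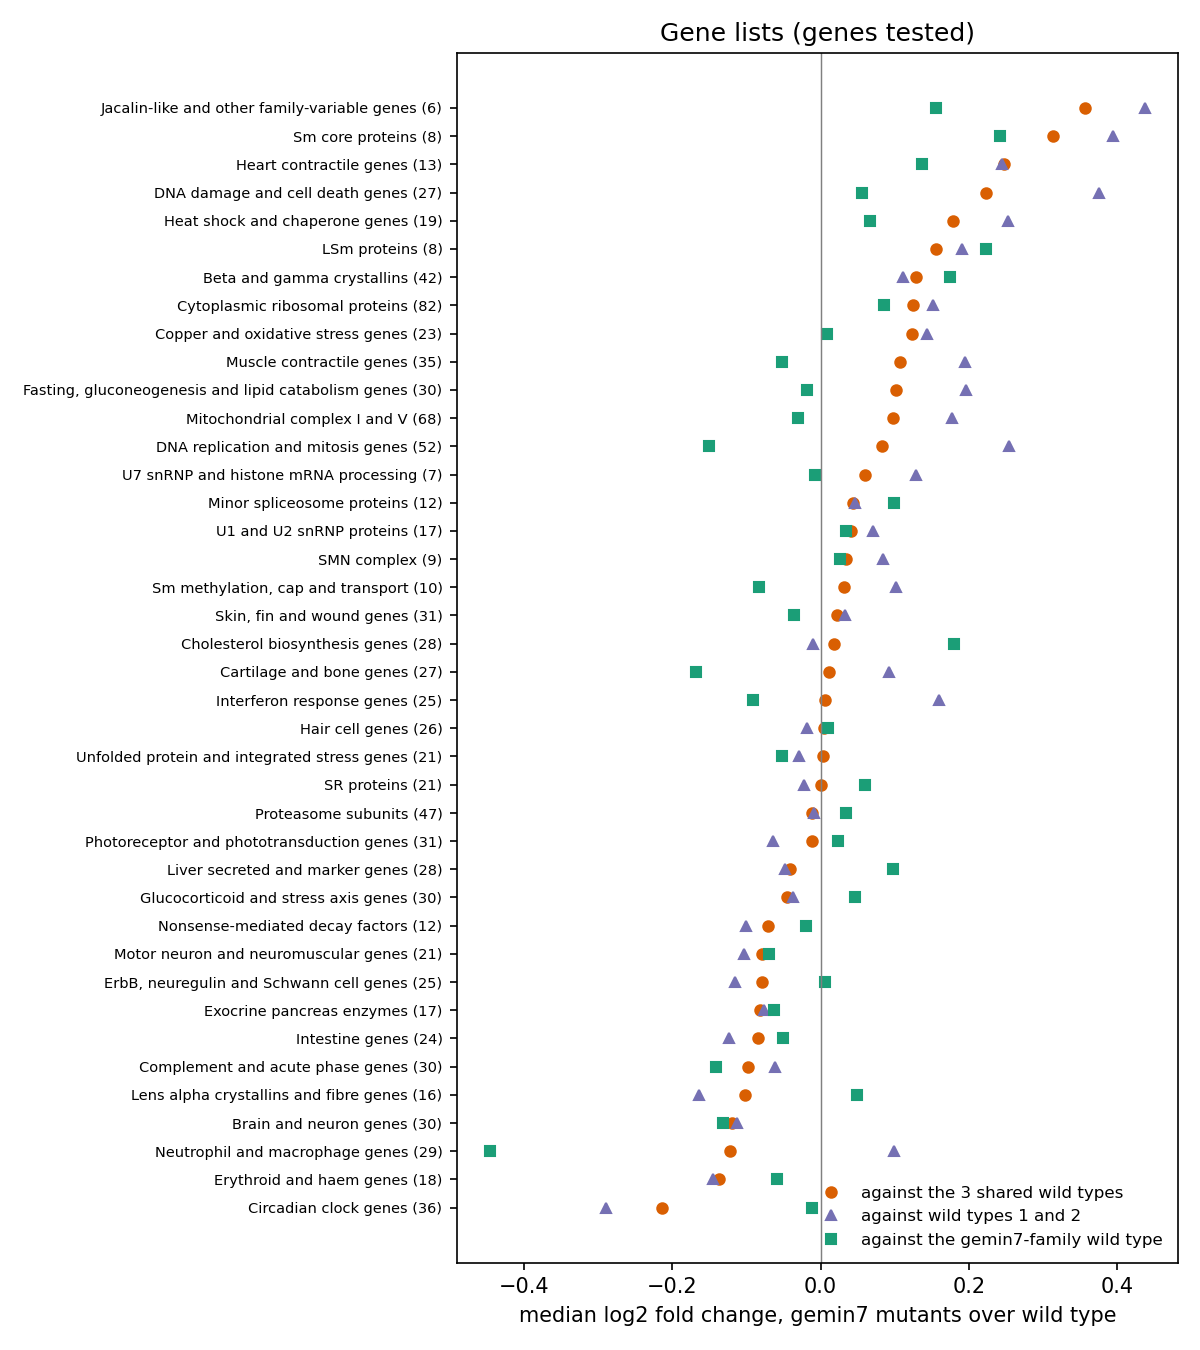
Median log2 fold change of each gene list in *gemin7* mutants against the 3 shared wild types (orange circles), against wild types 1 and 2 (purple triangles) and against the *gemin7*-family wild type (green squares), with the number of genes tested in brackets. The clock genes lie at -0.21 against the shared wild types and at -0.01 against the family's own library, and the neutrophil and macrophage genes at -0.12 and -0.45.

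Brain and neuron genes had a median below 0 with either control. Of 30 tested, none was higher and 9 were lower at an unadjusted p below 0.05, beside 5.66% of all genes, and the median was -0.12 against the shared wild types and -0.13 against the *gemin7*-family library. Against that library alone, 0 of the 30 were lower at an unadjusted p below 0.05, and in the fit of 33 libraries 4 were. *neurod1*, a neuronal differentiation factor, had 56.9, 50.8 and 56.8 CPM in *gemin7* mutants, against 73.3, 68.6 and 68.7 CPM in wild type. *elavl3*, which encodes the pan-neuronal protein HuC, had 138, 161 and 138 CPM in mutants, against 209, 191 and 169 CPM in wild type. The groups did not overlap for either gene, with log2 fold changes of -0.36 ± 0.099 and -0.38 ± 0.12. The vesicular glutamate transporter gene *slc17a6a* was at -0.38 ± 0.11 and the neurofilament gene *nefma* at -0.33 ± 0.10. The median length of the list was 2379 bases. *elavl3* lies in the group of longest transcripts, where 13.1% of all genes were lower. *slc17a6a* and *nefma* lie in the next longest group (6.81% lower) and *neurod1* in the middle group (3.92% lower). Of 21 motor neuron and neuromuscular genes, the cell type lost in spinal muscular atrophy, none was higher and 1 was lower, with a median of -0.08.

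Genes of lateral line biology had medians near 0. Of 26 hair cell genes, 2 were lower and none higher, with a median of 0.00, and 1 of the 2 was *pcdh15a*, which encodes a tip link cadherin of hair cells. *pcdh15a* had 6.55, 7.07 and 5.59 CPM in *gemin7* mutants, against 9.77, 8.82 and 7.41 CPM in wild type, a log2 fold change of -0.43 ± 0.15. It lies in the group of longest transcripts, where 13.1% of all genes were lower. Of 25 ErbB, neuregulin and Schwann cell genes, 3 were lower, with a median of -0.08. The receptor genes *erbb2* (-0.067 ± 0.13) and *erbb3b* (-0.099 ± 0.096) and the ligand gene *nrg1* (-0.24 ± 0.16) all had differences with an unadjusted p above 0.05. In whole larvae, lateral line cells give a small share of the RNA.

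DNA damage and cell death genes had a median of 0.22 over 27 tested, with 3 higher and none lower. Without the *gemin7*-family wild type 12 were higher and the median was 0.38, while against that library alone 1 was higher and the median was 0.06. *pmaip1*, which encodes the pro-apoptotic protein Noxa, had 15.3, 56.1 and 16.9 CPM in *gemin7* mutants, against 11.07, 10.8 and 12.5 CPM in wild type. The value was set mainly by the second mutant library. *mdm2*, which encodes a ubiquitin ligase, had 44.8, 44.0 and 48.6 CPM in mutants, against 37.6, 32.8 and 43.1 CPM in wild type, a log2 fold change of 0.28 ± 0.12 with an edgeR adjusted p of 0.610. *mcl1b*, of the anti-apoptotic Mcl-1 kind, was at 0.33 ± 0.13.

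The values of the clock genes differed with the control library. Of 36 tested, 7 were lower and none higher at an unadjusted p below 0.05. *per1b*, a repressor of the clock, had 109, 57.4 and 97.4 CPM in *gemin7* mutants, against 248, 206 and 98.3 CPM in wild type. *hlfa*, a PAR bZIP factor, had 28.0, 31.4 and 44.1 CPM in mutants, against 71.9, 75.9 and 44.4 CPM in wild type. For both, the *gemin7*-family wild type (the last value) was close to the mutants and the 2 other wild types were far above. The log2 fold change of *per1b* was -1.06 ± 0.35 against the shared wild types and -0.15 ± 0.65 against the family's own library, and those of *nr1d4b*, a Rev-erb receptor gene, were -1.046 ± 0.38 and 0.056 ± 0.78. *nr1d4a*, of the same receptor family, had 1.70, 1.41 and 1.53 CPM in mutants, against 4.99, 3.57 and 2.201 CPM in wild type, where the family's own library was nearest but still above every mutant. Family and genotype cannot be told apart in these genes.

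The median of immune cell genes differed with the control library too. Over 29 neutrophil and macrophage genes the median was -0.12 against the shared wild types, 0.10 without the *gemin7*-family library and -0.45 against that library alone, which itself was 0.53 above the other 2 wild types. *ptprc*, which encodes the leukocyte antigen CD45, had 7.60, 7.94 and 5.87 CPM in *gemin7* mutants, against 8.87, 9.88 and 9.81 CPM in wild type. The receptor gene of granulocyte colony stimulating factor, *csf3r*, had 2.97, 2.39 and 2.57 CPM in mutants, against 3.72, 3.52 and 3.88 CPM in wild type. The log2 fold changes were -0.42 ± 0.15 for *ptprc* and -0.49 ± 0.16 for *csf3r*. Without the *gemin7*-family library they were -0.39 and -0.45, and against it alone -0.45 and -0.54, so these genes differed little with the control. DNA replication and mitosis genes, 52 tested, had a median that did differ, at 0.08 against the shared wild types and -0.15 against the family's own library.

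Genes of other organs were found in both directions. Of 28 liver genes, 5 were higher and 4 lower, with *apoeb*, an apolipoprotein gene, at 0.29 ± 0.081, *cp*, which encodes the copper carrier ceruloplasmin, at -0.60 ± 0.15 and the transferrin gene *tfa* at -0.40 ± 0.12. Of 27 cartilage and bone genes 4 were lower, among them the chondrocyte factor *sox9b* (-0.49 ± 0.20), the aggrecan gene *acana* (-0.41 ± 0.14) and the osteoblast factor *sp7* (-0.38 ± 0.15). Over this whole list 14 genes were positive and 13 negative, with a median of 0.01. Of 13 heart contractile genes 2 were higher, with *myl4*, an atrial myosin light chain gene, at 0.53 ± 0.16. Of 28 cholesterol biosynthesis genes 3 were higher, with *insig1* at 0.62 ± 0.26, *msmo1* at 0.51 ± 0.18 and the regulator *srebf2* at 0.26 ± 0.10. As a list these were not shifted, with 14 positive, 14 negative and a median of 0.02. Of 82 cytoplasmic ribosomal protein genes 80 were positive, by a median of 0.12, but 3 had an unadjusted p below 0.05, with *rps12* at 0.38 ± 0.094. Their median length was 702 bases, again short.

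The comparison with the single wild-type library of the *gemin7* family asked how the mutants differed from their own family. All 49 genes that DESeq2 called against the shared wild types had the same direction against this library. That was fixed in advance, because this library is 1 of those wild types and none of the 49 overlapped between the groups. Here edgeR estimated the spread from 13 groups over 33 libraries, in which the lone library is assumed to vary like the others, and 1 gene of 25124 was called (0.00398%), while 432 (1.72%) had an unadjusted p below 0.05, 207 of them higher (0.824%). The called gene was the cytokine gene *il11b*, with 0.0762, 0.0257 and 0.0943 CPM in *gemin7* mutants, against 0.0271, 0.0723 and 1.38 CPM in wild type, a log2 fold change of -4.31 ± 0.66 and an edgeR adjusted p of 0.0218. The 2 other wild types had the low level of the mutants, so that the call rested on 1 library with a higher value.

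The other genes of lowest p in this comparison were of both kinds. *irg1*, which makes itaconate in macrophages, had 3.86, 2.93 and 3.23 CPM in *gemin7* mutants, against 2.23, 2.096 and 11.2 CPM in wild type. The chemokine gene *cxcl18b* had 4.12, 4.96 and 6.48 CPM in mutants, against 2.01, 3.52 and 14.4 CPM in wild type, and *odc1*, the first enzyme of polyamine synthesis, had 8.61, 17.6 and 11.4 CPM in mutants, against 11.4, 9.11 and 36.1 CPM in wild type. In all 3 the family's own library was the highest of the 6, and the other wild types lay within or below the range of the mutants. Among the genes higher than in this library, *snapc4*, *brf2*, *mettl16*, *serf2* and *bcl7b* had wild types that all lay below the mutants. *bcl7b*, a subunit gene of the SWI/SNF complex, was at 0.95 ± 0.25. The nuclease gene *fan1* (-0.77 ± 0.22), the NADPH oxidase gene *ncf1* (-0.66 ± 0.20) and the retromer gene *snx6* (-0.51 ± 0.15) were lower. None of these passed the edgeR adjustment.

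The *gemin7*-family library also stood apart from the wild types of the other families, though with 1 library per family, a difference between families and a difference between libraries cannot be told apart. In the *gemin7*-family library against the other 2 wild types, edgeR called 32 genes (0.127%), with 19 higher (0.0756%) and 13 lower (0.0517%), among them *irg1* (edgeR adjusted p = 0.0286) and *cxcl18b* (edgeR adjusted p = 0.0358). When that library was left out of the 6, edgeR called 0 genes, with 3662 (15.6%) at an unadjusted p below 0.05, 1505 of them higher (6.42%), and 0.0847 as the smallest adjusted p. When it was left out of the fit of all libraries, edgeR called 197 of 24750 genes (0.796%), 80 higher (0.323%) and 117 lower (0.473%) in *gemin7* mutants, against 4 with it. Those fits leave wild types of the *gemin4* and *gemin6* families alone, so that family and genotype cannot be told apart in them.

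A direct contrast asked which genes set the *gemin7* mutants apart from *gemin4* and *gemin6* mutants. It had more calls than the comparison with wild type, and most called genes had a difference of the same sign between the wild-type libraries. edgeR called 304 of 23494 genes (1.29%), of which 169 (0.719%) were higher and 135 (0.575%) lower in *gemin7* mutants. For 296 of the 304 (97.4%), the *gemin7*-family wild type differed in the same direction from the 2 other wild types, against 70.9% of all genes tested. For 198 (65.1%) it did so by over 0.5 of the difference between the mutants, against 54.9% of all genes. The differences between wild types were taken on log2 values of CPM plus 0.5, which shrinks them at low CPM. The edgeR fold changes between mutants had no such addition, so these shares may be too low. Among the called genes were *steap4*, *mycb* and *cherp*, named above. They had log2 fold changes of -0.996, -0.65 and -0.45 between mutants, beside -0.02, -0.26 and -0.20 between the wild types. The differences between wild types are of single libraries, and family and mutation cannot be told apart in the called genes.

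**Figure D5:**
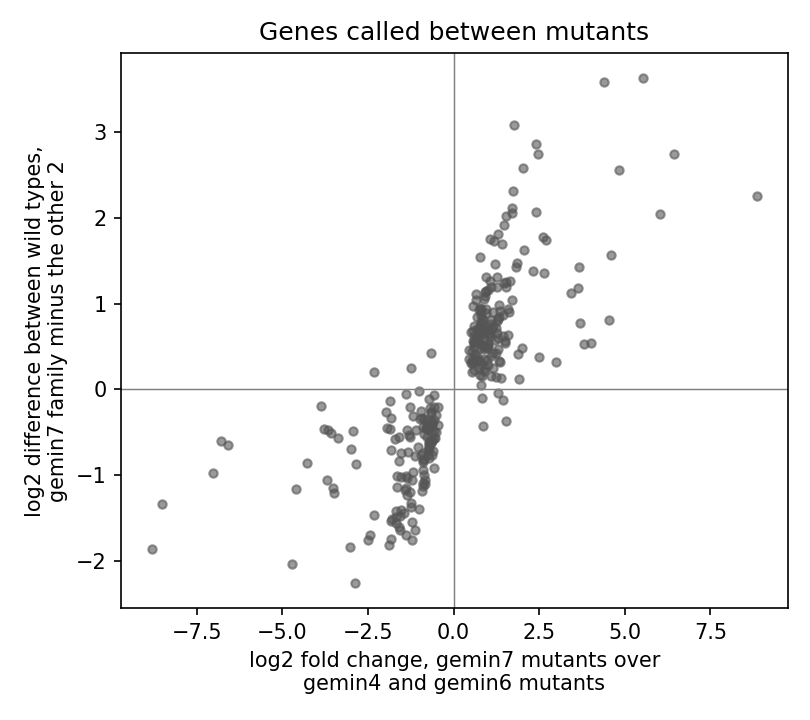
Each point is 1 of 303 genes called between *gemin7* mutants and *gemin4* and *gemin6* mutants, with the log2 fold change between mutants on the x axis and the log2 difference of the *gemin7*-family wild type from the 2 other wild types on the y axis. The y values are of CPM plus 0.5, which shrinks them for genes of low CPM, and the x values are edgeR fold changes. Of the 304 called genes, 296 have the same sign on both axes.

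*mgst2*, which encodes a microsomal glutathione S-transferase, illustrates this. It had 18.7, 14.8 and 17.9 CPM in *gemin7* mutants, against 5.95, 5.54 and 6.25 CPM in *gemin4* and 7.01, 6.07 and 6.30 CPM in *gemin6* mutants. The wild types of the *gemin4*, *gemin6* and *gemin7* families had 5.21, 10.9 and 18.6 CPM in that order, the last at the level of the *gemin7* mutants. *capn7*, a calpain protease gene, was lower, with 3.78, 3.69 and 2.84 CPM in *gemin7* mutants, against 16.3, 14.7 and 10.9 CPM in *gemin4* and 9.16, 13.3 and 9.95 CPM in *gemin6* mutants. Its wild types had 13.7, 8.77 and 3.47 CPM in the same order of families, and again the last was level with the *gemin7* mutants. *ctps1b*, a CTP synthase gene, had 24.6, 23.6 and 17.0 CPM in *gemin7* mutants, against 77.2, 76.1 and 81.1 CPM in *gemin4* and 45.3, 61.3 and 55.1 CPM in *gemin6* mutants, with 76.3, 36.5 and 18.7 CPM in the wild types.

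The calls of *cep135* and *ahsa1a* rested on 1 of the 2 mutants compared, and that of *cts12* on both. *cep135*, which encodes a centriole protein, had 25.8, 27.4 and 25.8 CPM in *gemin7* mutants, against 22.6, 23.8 and 26.5 CPM in *gemin4* and 5.80, 6.27 and 6.69 CPM in *gemin6* mutants. Among the mutants, those of *gemin6* alone stood apart. The wild types of the *gemin4*, *gemin6* and *gemin7* families had 23.5, 14.4 and 24.3 CPM in that order. *ahsa1a*, an activator of Hsp90, had 6.24, 5.68 and 8.20 CPM in *gemin7* mutants, against 6.12, 5.99 and 7.76 CPM in *gemin4* and 0.833, 0.944 and 0.815 CPM in *gemin6* mutants, the same pattern. Its wild types had 5.313, 3.175 and 6.214 CPM in the same order of families. For both genes the *gemin6*-family wild type was the lowest of the wild types. *cts12*, a cathepsin gene, was lowest in *gemin7* mutants, with 1.46, 0.831 and 1.35 CPM there, against 3.59, 4.35 and 6.25 CPM in *gemin4* and 4.77, 5.24 and 4.03 CPM in *gemin6* mutants. Its wild types had 3.05, 2.71 and 1.96 CPM, all above the *gemin7* mutants, and the log2 fold change against the *gemin7*-family wild type was -0.69 ± 0.35. *irgq1*, of the immunity-related GTPases and the gene called lower than wild type in the fit of 33 libraries (edgeR adjusted p = 0.0269), had 0.0511, 0.0779 and 0.0237 CPM in *gemin7* mutants, against 1.62, 0.611 and 0.184 CPM in wild type. Its lowest wild type, at 0.18 CPM, was again that of the *gemin7* family.

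Genes next to *gemin7* were described because alleles close to a mutation are inherited with it. Of 20 neighbours tested, 10 on each side in the gene order of the GRCz12tu assembly, none was higher and 4 were lower at an unadjusted p below 0.05, beside 2.57% and 5.66% of all genes, and the median log2 fold change was -0.05. The nearest on the 2 sides were *st3gal4* (0.036 ± 0.12) and *bmp16* (0.10 ± 0.11). The range ended at -0.72 ± 0.18 for *sphkap*, a kinase anchoring gene, with *abcc8b*, a channel subunit gene, at -0.66 ± 0.20 and *shkbp1* at -0.27 ± 0.11. Against the *gemin7*-family wild type alone the median of the 20 was 0.01. There the 4 lower genes were at -0.45 for *sphkap*, -0.13 for *abcc8b*, -0.15 for *shkbp1* and -0.08 for *si:cabz01090165.1*. Each was a smaller difference than against the shared wild types.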

How the data were processed

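RNA-Seq of larval pools was analysed. Per the paper's methods, RNA with an integrity number over 9 was used, and reads (125-base paired-end, per the labels) were aligned by STAR (2.6.1c there, 2.5.4a in the submitters' processing notes) to GRCz10 (danRer10) with Ensembl release 91 without pseudogenes, and counted by RSEM. The processing notes also name Trimmomatic 0.36 and HISAT2 2.2.1.0. The authors deposited RSEM expected counts per gene, which divide reads with several possible origins and need not be whole. The deposited TPM values are RSEM estimates scaled for transcript length, and were used only for levels between genes. Other deposited columns used here gave transcript length and the posterior SD of each estimate, which was up to 63% of the count for *nlrc11*.

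Expected counts were rounded. edgeR 4.0.16 (R 4.3.3; filterByExpr, TMM, quasi-likelihood test, Benjamini-Hochberg) was fitted to the 6 libraries of a comparison, with genes called at an adjusted p below 0.05, and to 9 libraries for the contrast with *gemin4* and *gemin6* mutants. The SE of a fold change was taken as its size over the root of the F statistic. Python 3.11.15, pandas 2.3.3, SciPy 1.17.1, matplotlib 3.10.9 and DESeq2 1.42.0 were also used. The scripts were tested on simulated data. No pair of replicates was identical (chi-square per degree of freedom 22.4 to 47.5). The 6 libraries had 37573729 to 60650366 counts each, and counting error and spread between pools were not separated for single genes. Alternatives were DESeq2, RLE scaling, no filter, the replicate block, larger fits, the own-family wild type and leaving out each library.

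Of 34707 identifiers, 25732 took symbols from the gene table and 1664 from the supplementary tables, and 7311 stayed unnamed. Named genes are the SMN complex; the 12 higher and 12 lower genes of smallest p with a symbol, a mean of at least 2 CPM and no overlap; the 5 largest log2 fold changes each way at an unadjusted p below 0.01; 6 each way in the other contrasts; up to 4 members per list; 10 neighbours per side; and *mdm2*, *erbb2*, *erbb3b* and *nrg1*. Members and lists were chosen with earlier results of these data known, and 3 lists were added after values were seen. The 15 small RNA libraries were not used here.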

Additional observations from a re-analysis of the deposited data

Results flagged for a closer look

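Of the genes called in the edgeR contrast between *gemin7* mutants and the mean of *gemin4* and *gemin6* mutants, 12 are given here. They are the 6 each way with the smallest p in this same contrast, under the symbol and CPM rule for named genes. Other named genes were called in it too, among them *cartpt*, *steap4*, *tcnbb*, *abcc8b*, *cherp* and *mycb*. This contrast compares levels in the mutants and uses no control library, so it does not compare effects against wild type. The log2 differences, *gemin7* mutants minus the others, were positive for *mgst2* (1.48, edgeR adjusted p = 0.000123), *nlrc11* (4.39), *cep135* (1.101), *ahsa1a* (1.49), *tmem150a* (1.32) and *serping1* (1.103). They were negative for *ctps1b* (-1.57), *capn7* (-1.83), *cts12* (-1.94, edgeR adjusted p = 0.00344), *lipca* (-1.57), *cfh* (-0.97) and *C20H6orf58* (-1.38).

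Values of the wild types stood beside several of these. *lipca*, which encodes hepatic lipase, had 5.29, 4.65 and 5.64 CPM in *gemin7* mutants, against 11.9, 9.20 and 12.9 CPM in *gemin4* mutants, 14.0, 20.8 and 28.8 CPM in *gemin6* mutants and 10.9, 19.1 and 4.29 CPM in the wild types of the *gemin4*, *gemin6* and *gemin7* families. *serping1*, the C1 inhibitor gene of the complement system, had 18.3, 18.2 and 15.6 CPM in *gemin7* mutants, against 4.87, 5.36 and 7.16 CPM in *gemin4* mutants, 11.5, 12.7 and 10.02 CPM in *gemin6* mutants and 4.85, 15.4 and 15.7 CPM in those wild types. *cfh*, named after complement factor H, had 18.9, 17.8 and 15.9 CPM in *gemin7* mutants, against 23.6, 23.4 and 26.5 CPM in *gemin4* mutants, 48.6, 38.0 and 58.5 CPM in *gemin6* mutants and 20.1, 48.8 and 24.5 CPM in those wild types. *nlrc11* belongs to a family of similar copies, and the posterior SD of its estimate was up to 63% of its count, so its value is uncertain. Groups of 3 libraries were not searched for single outlying samples, and the part of family background in these differences was not tested.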

How the results depend on the processing

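Against the shared wild types edgeR called 0 genes, and also with RLE scaling, without a filter and without any 1 library (range 0 to 0). DESeq2 called 49, all 33 libraries in 1 fit 4, the 33 without the *gemin7*-family wild type, an alternative added after seeing the data, 197, and that library as the only control 1. At an unadjusted p below 0.05, edgeR had 1908 genes, 1076 without the wild type of the *gemin4* family, 965 without that of the *gemin6* family and 3662 without that of the *gemin7* family. Between the mutants it called 304 genes, DESeq2 1029, the fit of 33 libraries 481, and leaving out a library gave 60 to 393, with 84 and 60 without *gemin7* mutant 1 or 2 and 158 and 113 without *gemin4* mutant 1 or 2. Against the *gemin7*-family library it called 1 gene, 0 with the 15 libraries of this control and its mutants, and 0 to 0 without a mutant library. Between wild types it called 32, and 9 with 15 libraries. The cause of these changes was not tested.

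Of 84 named genes that were checked, 76 kept their direction under every alternative, and 1075 of 1091 values did. For genes whose mutant and wild-type libraries did not overlap, leaving out a library or using the *gemin7*-family control alone could hardly reverse the direction. The leading genes were chosen for this lack of overlap. Their kept directions under those alternatives were thus largely fixed in advance and add no support. With the *gemin7*-family library as the only control, log2 fold changes changed sign to -0.094 for *gemin2*, 0.056 for *nr1d4b*, 0.050 for *per1a*, 0.12 for *erbb2* and 0.018 for *nrg1*, and *gemin4* was at 0.0044 in 32 libraries. Leaving out libraries moved *gemin2* from -0.013 to 0.085, *gemin4* from -0.052 to 0.014, *gemin6* from -0.19 to 0.38, *gemin8* from -0.052 to 0.10 and *erbb2* from -0.15 to 0.011. *gemin7* mRNA was 58.7% to 66.3% of wild type without a library.

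The replicate block gave 0 calls against wild type (1481 genes at an unadjusted p below 0.05) and 136 between mutants. The deviations of same-numbered mutant and wild-type libraries correlated at 0.015, -0.28 and -0.14, and those of *gemin7* mutants with *gemin4* and *gemin6* mutants at -0.38 to 0.18, so the numbers do not pair the libraries.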
